A study of Mus musculus with 2 samples.

Results

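Immediate early genes were examined in the cerebral cortex of newborn mice as a list of 40 named genes, out of 18193 genes that the array annotation names. The list was drawn up by gene name, and a gene was read through the probe sets that the platform annotation gives to it alone. All 40 genes had such a probe set, 78 probe sets in all. They were kept in 2 classes, 22 transcription factors and 18 effectors, the latter being phosphatases, synaptic proteins and other proteins that act outside DNA binding.

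The series holds 2 Affymetrix arrays, each hybridised with cortical RNA combined from 3 mice. The control pool carried Mrtfa null alleles (MRTFA-/-) and floxed Mrtfb alleles (MRTF-BFlox/Flox) with no Cre. The double knockout pool carried MRTF-A-/- and MRTF-BF/F together with GFAP-Cre. By label both pools lacked MRTF-A and differed in Mrtfb deletion and the Cre transgene. The Mrtfa signal, given below, was not equal in the 2 pools, so the comparison cannot be read as one of Mrtfb alone, and the pools are named by their labels throughout. The sample characteristics give postnatal day 0 for both, and the description of the double knockout sample gives postnatal day 1. GFAP is a gene of radial glia and astrocytes, and the share of cells in which Cre acted was not stated in the sources used here. With 1 array per pool there was no replicate, so values and differences are given without a test. Animals of a pool cannot be told apart. A lower signal in bulk tissue can mean fewer cells of a type or less RNA per cell.

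Immediate early genes are transcribed within minutes of a stimulus, before any new protein is made. In neurons the stimulus is calcium entry or cAMP, and in many cells it is a growth factor acting through MAP kinases. Their promoters and enhancers often hold the CArG box, where SRF binds, and the cAMP response element, where CREB binds. SRF works with 2 sets of partners. The TCF factors Elk1, Elk3 and Elk4 couple it to MAP kinases and to genes such as Fos and Egr1, while MRTF-A and MRTF-B couple it to actin dynamics and to cytoskeletal genes.

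Promoter sequences are shown because SRF and CREB sites are what these genes are known for. RefSeq promoter windows on GRCm38.p6, running from 250 bases before to 50 bases after an annotated start, were matched to 31 of the 40 genes. The remaining 9 were Fosl1, Egr1, Egr3, Klf10, Crem, Dusp4, Arc, Ier2 and Sik1. A CArG box lay in the windows of 3 members, Egr2, Dusp5 and Zfp36 (9.68% of 31), against 1.81% of all 27025 genes with a window. Egr2 had it 72 bases before one of its annotated starts, at chr10:67537742-67537861 (plus strand). Dusp5 had 2 adjoining boxes at chr19:53529008-53529137 (plus strand), and Zfp36 had 1 at chr7:28379222-28379341 (minus strand). Egr2 was the only one of the 3 with a signal at the floor, so Dusp5 and Zfp36 are printed as sequences chosen after their values were seen. Capitals mark the CArG boxes.
Egr2: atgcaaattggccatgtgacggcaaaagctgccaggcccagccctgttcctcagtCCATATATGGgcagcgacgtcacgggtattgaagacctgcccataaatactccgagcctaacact
Dusp5: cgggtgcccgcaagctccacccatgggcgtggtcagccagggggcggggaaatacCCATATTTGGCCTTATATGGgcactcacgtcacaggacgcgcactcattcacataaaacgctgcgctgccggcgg
Zfp36: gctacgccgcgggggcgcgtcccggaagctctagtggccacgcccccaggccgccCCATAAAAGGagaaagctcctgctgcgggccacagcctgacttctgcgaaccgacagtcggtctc

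The full cAMP response element, TGACGTCA, lay in the windows of 3 members, Btg2, Dusp1 and Maff (9.68%), against 2.03% of all genes. Its core TGACG, read on both strands and counted also inside the full element, lay in 22 of 31 members (71.0%) and in 23.0% of all genes. Member promoters were richer in G and C, with a median of 64.7% against 52.7% over all genes, and 30 of 31 lay above that general median. Among genes with at least 60% G and C the core lay in 34.6% of 7800 genes and in 17 of 22 members. The AP-1 site TGANTCA was found in 0 of 31 members and in 8.97% of all genes, and the TATA motif TATAAA in 4 members (12.9%) and 15.7% of all genes, both searched on both strands and chosen after seeing the data. Among genes with at least 60% G and C, TATAAA lay in 3 of 22 members and 4.24% of genes, so that its share in members was then above the general one. In the same genes the AP-1 site lay in 0 of 22 members and 3.95% of genes, the CArG box in 2 members and 1.21%, and the full cAMP response element in 2 members and 3.42%. These windows are short, and a site outside them would not be seen. The stretches below are those of Btg2 at chr1:134079259-134079376 (minus strand), Dusp1 at chr17:26508553-26508670 (minus strand), Fos at chr12:85473706-85473883 (plus strand) and Egr4 at chr6:85513639-85513821 (minus strand). They were chosen after the values were seen, for having the full element or for the differences given further on. Capitals mark the full element in Btg2 and Dusp1 and the core, on either strand, in Fos and Egr4.
Btg2: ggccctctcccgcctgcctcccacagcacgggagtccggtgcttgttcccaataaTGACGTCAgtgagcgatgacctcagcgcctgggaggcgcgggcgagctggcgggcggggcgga
Dusp1: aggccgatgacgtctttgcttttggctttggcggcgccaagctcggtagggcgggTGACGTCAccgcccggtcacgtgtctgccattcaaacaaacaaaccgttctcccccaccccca
Fos: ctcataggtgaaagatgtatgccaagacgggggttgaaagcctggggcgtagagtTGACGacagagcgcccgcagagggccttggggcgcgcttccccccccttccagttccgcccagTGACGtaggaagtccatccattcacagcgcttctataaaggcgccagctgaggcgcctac
Egr4: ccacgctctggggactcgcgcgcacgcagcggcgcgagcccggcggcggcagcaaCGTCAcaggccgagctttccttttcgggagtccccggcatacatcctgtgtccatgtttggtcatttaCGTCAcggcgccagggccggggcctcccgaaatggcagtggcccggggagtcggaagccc

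Measured members with the TGACG core had a median difference of -0.02 log2 (17 genes) and those without one -0.05 (8 genes). Whether these medians differ was not tested. All differences here are on the log2 scale, and a negative one means a lower signal in the double knockout pool.

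The targeted genes were read first. Mrtfb read 3358.9 in the control pool and 2481.8 in the double knockout pool, a difference of -0.44 (mean -0.33 ± 0.15, SD, 2 probe sets). Mrtfa, labelled null in both, read 601.6 and 262.4, over the floor in both and 2.30-fold lower in the double knockout pool (-1.20). That difference was larger than the one in Mrtfb and rests on 1 probe set. The sources used here do not say whether this probe set lies in the deleted part, so it cannot tell the Mrtfa status of the pools. SRF's own gene, Srf, read 582.3 and 471.1 (mean -0.28 ± 0.05, SD, 2 probe sets). Among the TCF partners, Elk1 differed by -0.13, Elk3 by 0.23 and Elk4 by 0.14, although the 2 probe sets of Elk4 averaged -0.08 ± 0.31 (SD). Myocd, the muscle relative of the MRTFs, stayed under the floor. The 2 arrays had a Pearson r of 0.990 across 11013 genes, which are not independent replicates.

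Of the 40 immediate early genes, 30 reached the floor of 178.6 on each array. That floor is the 50th percentile of all signals that are not array controls. In the control pool alone 3 more reached it, Egr2, Arc and Gadd45b, and 7 stayed under it in both pools. Each gene was read through its brightest probe set, and levels of different probe sets are not comparable with each other. Of the 30 genes, 18 were lower in the double knockout pool and 12 higher, where 45.7% of all 11013 genes seen on both arrays were lower. Their median was -0.10, against 0.02 over all genes, and they ran from -0.50 to 0.47. Probe sets of 1 gene differed from each other by a pooled SD of 0.18 log2 over 4858 genes, and 8 of the 30 members (26.7%) lay beyond that distance from 0, as did 26.2% of all genes. In size, then, the differences of immediate early genes were like those of genes in general.

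**Figure D1:**
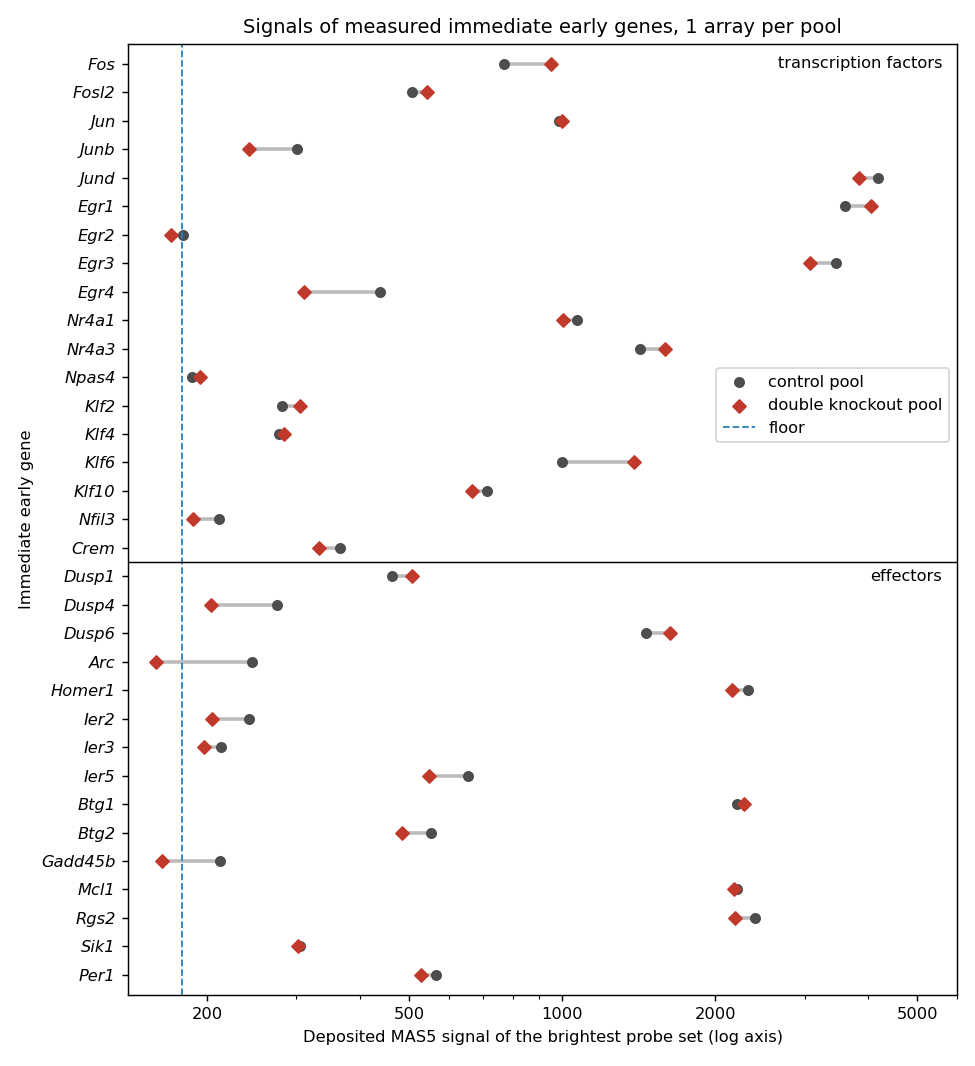
Deposited MAS5 signals (log axis) of the 33 immediate early genes that reached the floor on at least 1 array, with 1 circle for the control pool and 1 diamond for the double knockout pool, each from 1 array of 3 pooled mice. The dashed line is the floor of 178.6. Klf6 and Fos show the widest gaps to the right, and Egr4, Dusp4 and Arc to the left.

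The 17 transcription factors on both arrays split into 8 lower and 9 higher, around a median of 0.01. The 13 effectors on both arrays split into 10 lower and 3 higher, around a median of -0.11. The 76.9% of effectors that were lower stand against the 45.7% of all genes, and with 1 array per pool that contrast could not be tested. The size of the contrast depended on the setting. With the floor at the 25th percentile the classes were nearly alike, with 11 of 18 effectors and 11 of 21 transcription factors lower. At the 75th percentile these were 4 of 6 and 5 of 9, and with no floor 13 of 18 and 11 of 22. After quantile normalization or loess centring they were 11 of 15 and 8 of 17, with Arc and Gadd45b counted. Only 3 members on both arrays passed 1.3-fold (0.38 log2). Egr4 and Dusp4 were lower, 2 of 30 where 3.29% of all genes were, and Klf6 was higher, 1 of 30 where 2.02% were. These counts are too small to be told from the general shares.

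**Figure D2:**
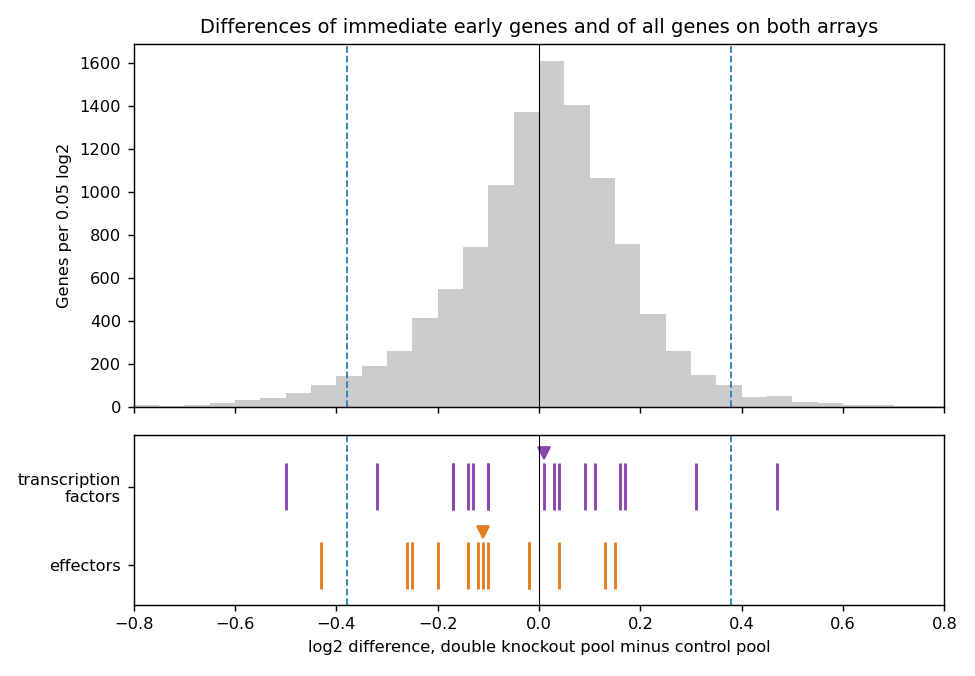
Histogram of the log2 differences of 11013 genes on both arrays (top, genes per bin, with the few genes beyond 0.8 in either direction not drawn) and, below it, 1 line for each of 17 transcription factors and 13 effectors, with triangles at the class medians of 0.01 and -0.11. Dashed lines stand at 1.3-fold, and 3 members lie beyond them.

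Among the AP-1 factors, which pair as Fos-Jun dimers on DNA, members went both ways. Fos, the classical marker of recent activity, read 768.1 in the control pool and 952.7 in the double knockout pool, 1.24-fold higher (0.31). On its single probe set, its difference lay above those of 96.1% of measured genes. Junb, a Jun protein that is induced with Fos, read 300.9 and 241.5, 1.25-fold lower (-0.32). So 2 partners in the same dimer system stood apart by about equal amounts on opposite sides of 0. Jund, the Jun protein with the steadiest expression, read 4178.0 and 3838.3 (-0.13). Jun read 987.0 and 999.0 on its brightest probe set and averaged 0.10 ± 0.12 (SD, 2 probe sets), with -0.01 under a floor at the 75th percentile. Fosl2, which encodes Fra-2, read 505.9 and 541.6 on the brighter probe set (0.09) but 264.3 and 187.1 on the other (-0.50), so its direction depended on the probe set. Fosb and Fosl1, induced members with little expression at rest, stayed under the floor at 140.3 and 96.2 for Fosb and at 121.0 and 116.3 on the brighter of 2 probe sets for Fosl1.

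The EGR zinc-finger factors, which bind G- and C-rich sites and mark active neurons, also split. Egr1 read 3598.4 and 4047.1 (0.17), and Egr3 read 3460.4 and 3077.0 (-0.17). These 2 differences were of equal size in opposite directions and under the spread between probe sets. Egr4 read 437.4 in the control pool and 310.5 in the double knockout pool, 1.41-fold lower (-0.50), the lowest of all members on both arrays. Only 1.53% of measured genes had a lower difference, and the value was -0.34 with a pseudocount in place of the floor. Egr2, whose CArG box is shown above and which is known in hindbrain patterning and myelination, read 179.6 and 169.8, at the edge of the floor.

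The orphan nuclear receptors, which act without a known ligand, were near 0. Nr4a1 read 1071.5 and 1002.9 (-0.10), and Nr4a3 read 1421.1 and 1591.7 (0.16). Their relative Nr4a2, a deep-layer neuron factor outside the list, read 1482.0 and 1767.3 (mean 0.10 ± 0.12, SD, 4 probe sets). Npas4, the factor that neurons induce through calcium entry alone, read 187.1 and 193.4 (0.04), just over the floor in both pools.

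Of the KLF zinc-finger factors, Klf6 had the largest difference of any member on the higher side. Its brightest probe set read 998.3 and 1382.8, 1.38-fold higher (0.47), and a second read 342.6 and 455.5 (0.41). Another, under the floor in the control pool at 162.2, read 255.8, at least 1.43-fold higher. This one had to be higher to be counted, since only the double knockout pool reached the floor. The other 2 went the other way, at 640.9 and 510.3 (-0.33) and at 688.8 and 663.0 (-0.06). Probe sets of Klf6 thus lay on both sides of 0, with a mean of 0.12 ± 0.38 (SD, 4 probe sets on both arrays), and 96.0% of genes with several probe sets had a smaller SD. The transcript that each probe set reads was not worked out here. Klf2, a factor of endothelium and quiescent cells, read 281.0 and 304.6 (0.11). Klf4, a pluripotency factor, read 277.2 and 283.5 (0.03), and Klf10, a TGF-beta-induced repressor, 711.6 and 663.9 (-0.10).

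The remaining bZIP factors on both arrays were Nfil3, a repressor linked to the circadian clock, at 211.0 and 187.8 (-0.17), and Crem, a relative of CREB with repressor isoforms, at 364.7 and 332.7 (-0.14). Both were slightly lower in the double knockout pool, by less than the spread between probe sets. The stress-induced Atf3 stayed under the floor at 64.3 and 76.4, and Maff, a small Maf protein, at 9.1 and 22.8.

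Effectors began with the MAP kinase phosphatases, which switch off the kinases that induced them. Dusp4, a nuclear phosphatase, read 274.6 and 203.8, 1.35-fold lower (-0.43), and -0.25 with a pseudocount, -0.35 after quantile normalization and -0.37 after loess centring, all of them under 1.3-fold. Dusp6, the cytoplasmic ERK phosphatase that reports FGF signalling, read 1463.6 and 1633.7 (0.15). Dusp1, which acts on stress kinases and ERK, read 461.8 and 507.1 (0.13). The 3 measured phosphatases therefore did not share a direction. Dusp5, with its 2 CArG boxes, stayed under the floor at 36.8 and 91.5.

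Synaptic effectors were both lower. Arc, whose protein drives AMPA receptor endocytosis at synapses, read 245.5 in the control pool and 159.1 in the double knockout pool, under the floor. Against the floor that is at least 1.37-fold lower, or -0.63 with no floor. It had to be lower to be counted this way, since only the control pool reached the floor, and 3.67% of genes on at least 1 array were at least 1.3-fold lower. Homer1, a scaffold of the postsynaptic density with an activity-induced short isoform, read 2323.0 and 2155.5 on its brightest probe set. All 5 of its probe sets on both arrays were lower, from -0.24 to -0.01, with a mean of -0.09 ± 0.09 (SD). The sixth was under the floor at 51.8 and 29.4.

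All 3 IER genes, short serum-induced genes, were lower. Ier2, a nuclear regulator, read 242.2 and 204.6, 1.19-fold lower (-0.25). Ier5 read 653.5 and 547.8 (-0.26), but its second probe set read 204.7 and 203.7, and the mean was -0.13 ± 0.17 (SD, 2 probe sets). Ier3, an anti-apoptotic protein, read 213.6 and 197.6 (-0.12). The double knockout pool was below the control pool for each of them, as it was for 45.7% of all genes on both arrays. None passed 1.3-fold, and after quantile normalization Ier2 differed by -0.16 and Ier3, near the floor, by -0.02.

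Of 4 measured genes of growth arrest, survival and RNA decay 3 were lower, with a median of -0.11, and Gadd45b was counted through the control pool alone. Of all genes on at least 1 array 47.1% were lower. Btg2, an antiproliferative gene that marks neurogenic progenitors and holds the full cAMP response element shown above, read 552.5 and 483.6 and averaged -0.21 ± 0.03 (SD, 2 probe sets), so its probe sets gave nearly the same value. Btg1, its relative, read 2211.6 and 2276.6 and averaged 0.03 ± 0.01 (SD, 2 probe sets), or 0.00 after loess centring. Mcl1, a survival protein of the BCL2 family, read 2204.6 and 2180.3 and averaged -0.02 ± 0.07 (SD, 6 probe sets), with 3 probe sets on each side of 0. Gadd45b, a stress gene linked to DNA demethylation, read 212.1 and 163.0, at least 1.19-fold lower against the floor. Its other 2 probe sets, both under the floor, read 168.8 and 173.6 and 77.3 and 100.4. Zfp36, or tristetraprolin, which destabilises AU-rich mRNAs including those of other early genes, stayed under the floor at 157.4 and 164.4.

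The signalling regulators were also slightly lower. Rgs2, which shortens Gq signalling, read 2394.6 and 2185.3, and its 3 probe sets on both arrays averaged -0.18 ± 0.04 (SD). Each of those 3 was lower in the double knockout pool, and they lay between -0.20 and -0.14. Per1, a clock gene that light and cAMP induce, read 563.5 and 527.3 (-0.10). Sik1, a kinase that restrains CREB coactivators, read 304.9 and 302.0 (-0.02), but 0.03 after quantile normalization and 0.04 after loess centring. Ptgs2, which encodes the cyclooxygenase COX-2, stayed under the floor at 108.4 and 64.9 on its brighter probe set.

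**Figure D3:**
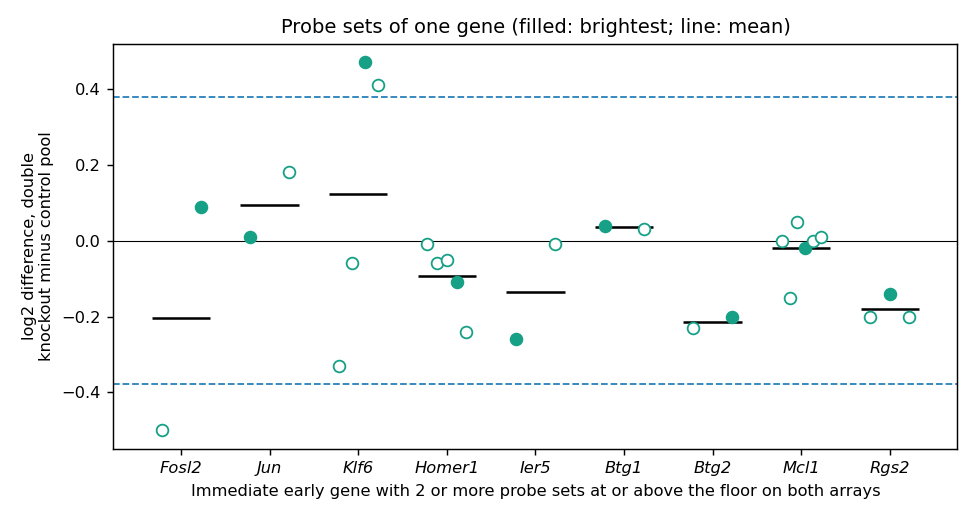
Log2 difference of each probe set (points, brightest filled) and their mean (line) for the 9 immediate early genes with 2 or more probe sets that reached the floor on each array. Dashed lines mark 1.3-fold. Homer1, Btg2 and Rgs2 have all probe sets below 0, while Klf6 and Fosl2 span 0 widely.

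Agreement between probe sets differed among the members. In 6 of 9 genes with several probe sets on both arrays, all of them had the same sign, namely Jun, Homer1, Ier5, Btg1, Btg2 and Rgs2, while 43.1% of 4858 such genes did so. Fosl2, Klf6 and Mcl1 had probe sets on both sides of 0. For Mcl1 the values lay between -0.15 and 0.05, whereas the SD of Fosl2 (0.42) was larger than in 97.6% of genes. The remaining 21 members on both arrays rested on 1 probe set, among them Fos, Junb, Egr4 and Dusp4.

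The signalling relay that induces these genes was near 0 as a group. Of the MAP kinase relay list 7 of 14 genes had a probe set naming them alone and were measured. Their median was 0.02, or -0.01 after quantile and -0.02 after loess centring, and 5 lay above 0. The stress kinase Mapk14 (p38 alpha) differed by 0.16 and the nuclear kinase Rps6ka5 (MSK1) by -0.18, but its 2 probe sets averaged 0.01 ± 0.28 (SD). In the calcium and cAMP relay 8 of 16 measured genes lay on each side of 0, around a median of 0.01 (-0.02 after loess centring). Camk4, the nuclear calcium kinase that activates CREB, read 4389.4 and 3487.9 (-0.34) and averaged -0.22 ± 0.56 (SD, 4 probe sets). Cacna1c, the L-type calcium channel, differed by -0.37 and averaged -0.13 ± 0.33 (SD, 2 probe sets). Creb1 itself read 1350.3 and 1371.2 (0.02). None of these relay genes passed 1.3-fold, where 3.29% of all genes on both arrays were that much lower and 2.02% higher. Of the same genes 45.7% lay below 0.

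Genes of a list named delayed activity genes were read as well, and their timing was not checked here. Their median over 14 measured genes was 0.05, with 10 higher and 4 lower, where 45.7% of all genes on both arrays were lower. Plk3 read 207.4 and 276.6 (0.41), the 1 gene of 14 past 1.3-fold, where 2.02% of all genes on both arrays were that much higher. Inhba, an activin subunit, read 389.2 and 313.1 (-0.32). Bdnf, the neurotrophin most studied as an activity target, read 597.6 and 618.4 and averaged -0.18 ± 0.31 (SD, 2 probe sets). Relatives of the members, from the same families but outside the list, were evenly split, with 12 of 25 lower and a median of 0.01. Of all genes on at least 1 array 47.1% were lower. Dusp14 differed by -0.26 on its only probe set. Klf3 differed by 0.28 and Zfp36l1 by 0.22 on the brightest probe set, but their means were 0.04 ± 0.14 (SD, 5 probe sets) and -0.17 ± 0.55 (SD, 2 probe sets).

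Actin and cytoskeletal targets of MRTF-SRF were mostly lower in the double knockout pool. The median over 20 targets was -0.12, with 16 below 0, where 45.7% of all genes on both arrays were lower. After quantile normalization it was -0.07, where that of the effectors was -0.14, and after loess centring -0.08, where that of the effectors was -0.15. Tgfb1i1 (-0.45) and Mical2 (-0.42) were the only 2 of 20 past 1.3-fold, where 3.29% of all genes on both arrays were that much lower. Whether the lists differ was not tested, since each pool had 1 array.

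**Figure D4:**
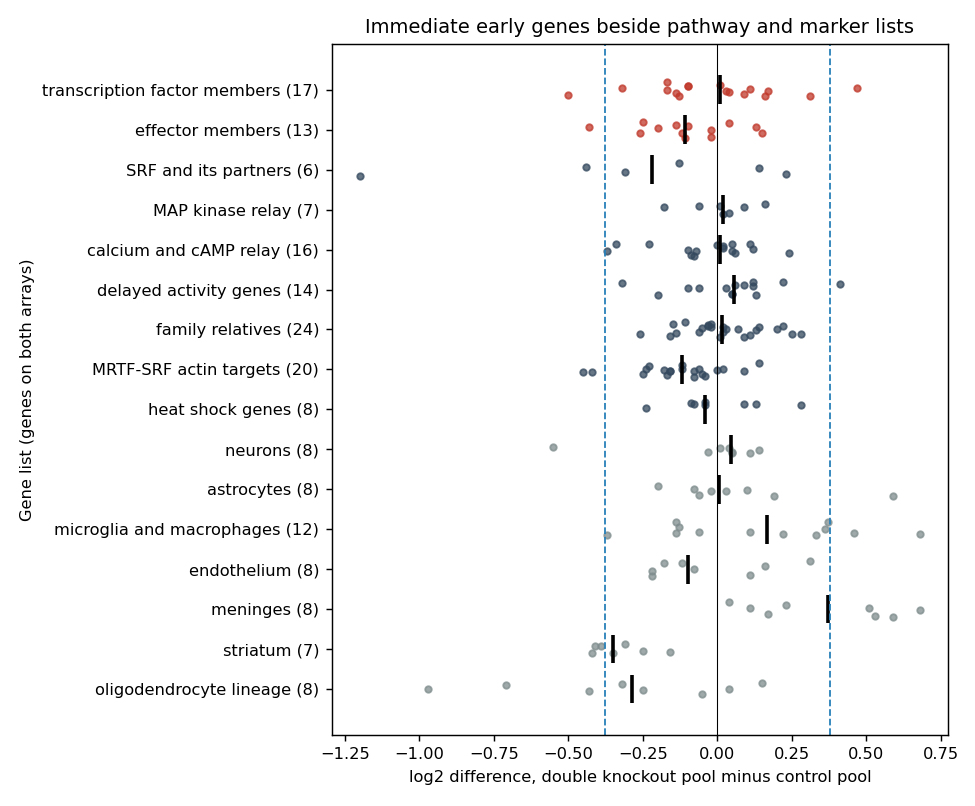
Log2 difference of each gene that reached the floor on each array (points) and the list median (line) for the 2 classes of immediate early genes (red), 7 pathway lists (dark blue) and 7 marker lists (grey), with the number of genes in brackets. Dashed lines mark 1.3-fold. Effector members and MRTF-SRF actin targets have medians of -0.11 and -0.12, while striatal markers lie at -0.35 and meningeal markers at 0.37.

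Markers of other tissue also differed between the pools, and their counts stand beside the 45.7% of all genes on both arrays that were lower. All 7 measured striatal markers were lower (median -0.35), their summed signal being 8703.0 in the control pool and 7008.9 in the double knockout pool, and Drd2 and Six3 differed by -0.42 and -0.41. Several early genes are also expressed in striatal neurons, and the part of this in their differences was not tested. Meningeal markers were higher in 8 of 8 cases (median 0.37, summed signal 6349.9 and 8350.0), led by Aldh1a2 at 0.68. Microglia and macrophage markers were higher in 7 of 12 (median 0.16, 7888.0 and 8596.7), with Mrc1 at 0.68. The lower ones were P2ry12 (-0.37), Tmem119 (-0.14), Cd14 (-0.14), Cx3cr1 (-0.13) and Aif1 (-0.06). Oligodendrocyte lineage markers were lower in 6 of 8 (median -0.29, 22191.2 and 19011.9), with Mobp at -0.97 and Mag at -0.71. In the same list Sox10 differed by -0.25, Olig2 by -0.05, Olig1 by 0.04 and Pdgfra by 0.15. Every measured marker of these lists reached the floor on each array. Neuron markers, which check the tissue label, reached the floor in both pools in 8 of 8 cases, with 2 lower and a median of 0.05, although Slc17a7, a glutamate transporter of cortical neurons, differed by -0.55. Astrocyte markers were split 4 and 4 (median 0.01), with Gfap at 0.59, and endothelial markers were lower in 5 of 8 (median -0.10). Red cell markers stayed under the floor for the 3 genes with a probe set. The part of tissue composition in the differences of early genes was not tested.

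Heat shock genes, which are induced by cell stress as some early genes are, were read beside them. The 8 measured ones had a median of -0.04, with 5 below 0, where 45.7% of all genes on both arrays were lower. Dnajb1 differed by 0.28 and Hspb1 by -0.24. The ratio of 3' to 5' array control signals was 1.41 and 1.35 for beta-actin and 0.719 and 0.728 for Gapdh, in the control and double knockout pools. RNA integrity as read by these controls was thus nearly the same in both pools, and its part in the differences of early genes was not tested.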

How the data were processed

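The authors deposited 1 table of linear MAS5 intensity values, 1 column for each array, per the submitters' processing notes; the version and target scaling are not stated in the sources used here. The table has 45101 probe sets, 64 of them array controls, and 0 columns of no listed sample. Of the others 34945 named 1 gene, 932 several and 9160 none, and Entrez identifiers of 99.4% matched RefSeq (GRCm38.p6). Signals were centred by 0.0037 log2 on the median of bright probe sets, floored at 178.6, and compared as log2 differences (double knockout minus control). Each gene was read through its brightest probe set (mean log2 signal of both arrays) and was measured if 1 array reached the floor, as 11636 genes did. Printed signals are as deposited. Folds with 1 array under the floor are lower bounds. SDs are over probe sets that reached the floor on each array and cover no animals. The number of arrays, 1 per group, limits the precision, and no test was made.

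Python 3.11.15, numpy 2.4.6, pandas 2.3.3, statsmodels 0.14.6 and matplotlib 3.10.9 were used, and the steps were checked on simulated data. The members and lists were chosen with earlier results of these data known. All members could be named. All of SRF and its partners were named. Up to 4 genes of each other pathway list and up to 2 of each marker list were named by absolute difference on both arrays. Bdnf and Creb1 were named outside this rule, after their values were seen. So were the lower microglia and macrophage markers and Olig1, Olig2, Sox10 and Pdgfra. Genes of the lists with no probe set naming them alone were not analysed here. Alternatives were other centring (none, quantile, loess with span 0.3), floors at the 25th and 75th percentile, no floor, a pseudocount, the mean over probe sets, probe sets without _x_at and _s_at, and folds of 1.2, 1.5 and 2.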

Additional observations from a re-analysis of the deposited data

How the results depend on the processing

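No member past 1.3-fold changed sign under any alternative run, and 28 of 33 measured members kept their sign throughout. Of 277 member values under alternatives 3 moved by more than 0.18 log2: Fosl2 to -0.20 and Klf6 to 0.20 with the mean over probe sets, and Dusp4 to -0.25 with a pseudocount. The Klf6 mean here included the probe set that reached the floor in the double knockout pool alone. The median of all members was -0.04 when the 75th percentile served as the floor (15 members) and between -0.10 and -0.07 otherwise. The median of transcription factors was -0.05 with the mean over probe sets, and that of effectors lay between -0.15 and -0.09. Of effectors on both arrays 10 of 13 were lower (Arc and Gadd45b, which had to be lower, left out). With the floor at the 25th percentile 11 of 18 were, against 11 of 21 transcription factors. With no floor these counts were 13 of 18 and 11 of 22, and with the mean over probe sets 12 of 15 and 10 of 18. Counting members at or above the floor on at least 1 array, 3 of 33 were at least 1.3-fold lower and 1 higher. Of all genes 3.67% and 2.1% were. With the floor at the 25th percentile the member counts became 5 and 2 of 39, where 9.25% and 4.3% of all genes passed. With no floor they were 6 and 3 of 40, where 16.6% and 6.92% did. With the floor at the 75th percentile or a pseudocount 0 were lower, where 1.43% and 1.46% of all genes were. With the mean over probe sets 0 were higher, where 1.57% of all genes were. At 1.2-fold 4 of 33 were lower and 2 higher, where 8.38% and 5.61% of all genes passed. At 1.5-fold and 2-fold there were 0 in either direction. Of all genes 0.773% were lower and 0.37% higher past 1.5-fold, and 0.043% and 0.0344% past 2-fold. Of all genes 427 were lower and 244 higher past 1.3-fold, but quantile normalization gave 328 and 319, loess centring 346 and 301, a pseudocount 170 and 96, and floors at the 25th and 75th percentile or none 1421 and 660, 100 and 53, and 3022 and 1259. No paired analysis was possible because each group has 1 array. Dim signals near the floor limit what can be read for Egr2, Npas4, Ier3, Nfil3, Arc and Gadd45b. The same holds for Dusp4 and Ier2, which read 203.8 and 204.6 in the double knockout pool.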
